A study of Mus musculus with 25 samples.

Results

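This account covers the joins that lay left of a Tus/Ter fork barrier and ran rightward, toward and into it. They were taken from a map of DNA joins in mouse embryonic stem cells. A join was counted here when its position in the reporter cassette lay before the first base of the array, position 3025, and its strand was plus, so that the cassette DNA kept in the join extended from that position toward the array. There were 403 such joins among the 11867 listed in the 10 deposited tables, 3.40% of them. A further 1028 joins in the same stretch ran leftward, away from the array, so rightward joins made up 28.2% of the 1431 joins left of the array.

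Tus is a bacterial protein that binds Ter sequences and stops a replication fork that meets it from one side. A stalled fork can be remodelled, cleaved or reversed, and the free DNA ends that arise can be joined to another break in the cell. BRCA1 acts in homologous recombination and in the protection of stalled forks, BLM is a helicase that unwinds recombination intermediates, and FANCM is a translocase that remodels forks and recruits the Fanconi anaemia machinery. When a pair of ends is joined without a long template, the junction can be blunt, can share a few bases that belong to both ends (microhomology), or can carry inserted bases.

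The cells carried a 4-kb cassette with a single GFP gene in the ROSA26 locus, interrupted by an array of Ter elements. A Cas9 cut 30 kb away in the same locus was the bait, and LAM-HTGTS, which amplifies from a primer beside the bait and reads whatever DNA was joined to it, was run on DNA collected 48 h after transfection. In 4 groups Tus was expressed in BRCA1del/exon11 cells with siRNA against BLM, BRCA1 or FANCM, or against luciferase as the control (n = 3 samples each). In 4 further groups Tus was expressed in BRCA1flox/exon11 cells with the same siRNAs (n = 3 samples for siFANCM and n = 2 for each of the others). The last 2 groups were BRCA1del/exon11 cells with siFANCM (n = 2 each), in which I-SceI, a nuclease that cuts its own site in the cassette, or an empty vector took the place of Tus. All 10 groups carried the cassette and the bait cut, and the labels do not say whether each genotype was 1 clone.

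Samples of 1 group share a table, so a library here is the joins of 1 group that came from 1 of 4 sequencing runs, called A to D. These 25 libraries held 148 to 933 listed joins and 1 to 70 rightward joins left of the array. BRCA1flox groups had no library in run A, and only their siFANCM group had one in run B. Nothing in the tables ties a library to a separate culture, so the p-values below rest on a spread that may be technical. In all 8 Tus groups the libraries of runs C and D opened with the same 5 bases, and identical body joins were shared by 0.328% of the smaller library within a group and by 0.214% between groups.

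The sequences that follow show 3 joins whose exact structure came back. The first and second came back most often, and the third had the longest overlap among several structures found in 2 joins. The bait side ended at the Cas9 cut, and the joins at cassette positions 2951, 2735 and 2883 are written through the junction. Bait bases come first and cassette bases last, capitals mark the bases that fit both sides, and all are 5′ to 3′ as read from the bait primer.
bait side up to the cut: gaaactaggcaggagtaacttgct
join at 2951: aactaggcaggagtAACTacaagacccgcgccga
join at 2735: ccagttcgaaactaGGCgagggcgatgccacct
join at 2883: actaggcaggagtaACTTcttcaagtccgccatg
The join at 2951 had lost 4 bases of the bait and used a 4-bp overlap. It was found with this exact sequence in 5 joins from 5 libraries. The join at 2735 had lost 14 bases, used a 3-bp overlap and was found in 3 libraries, and the join at 2883 had lost 3 bases, used a 4-bp overlap and was found in 2.

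Rightward joins were spread over the whole left stretch and became denser toward the array. Their median position was 2584 (interquartile range 1505 to 2835.5). EGFP, the coding part of the reporter, was taken to fill the last 388 bp before the array, and its start codon in the sequence rebuilt from the reads began 1 base earlier. Of the 403 joins, 180 lay in EGFP and 223 before it, a density of 46.4 joins per 100 bp in EGFP against 8.46 before it. From the start of EGFP to the array, successive windows of equal width held 41, 35, 45 and 59 rightward joins. The corresponding numbers of leftward joins were 118, 90, 135 and 437. In both kinds the window next to the array held the most joins.

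Before EGFP, no rightward join was listed between 2063 and 2447, an empty stretch of 383 bp. Leftward joins had their own empty stretch of 268 bp, between 2343 and 2612. Parts of the rebuilt sequence matched the mouse Pgk1 promoter (RefSeq, GRCm38.p6) between 2281 and 2516, a span that overlaps both gaps. The match was not continuous. It consisted of 59 shared stretches of 25 bases, and some bases in the span were not covered by any read. Pgk1 encodes a glycolytic enzyme whose promoter is often used to drive reporters. That match was the only one among 32851 promoters searched. The GC content of the window from 2401 to 2500 was 82.5% over its covered bases, and whether base composition or placement of reads produced the gaps was not tested.

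**Figure D1:**
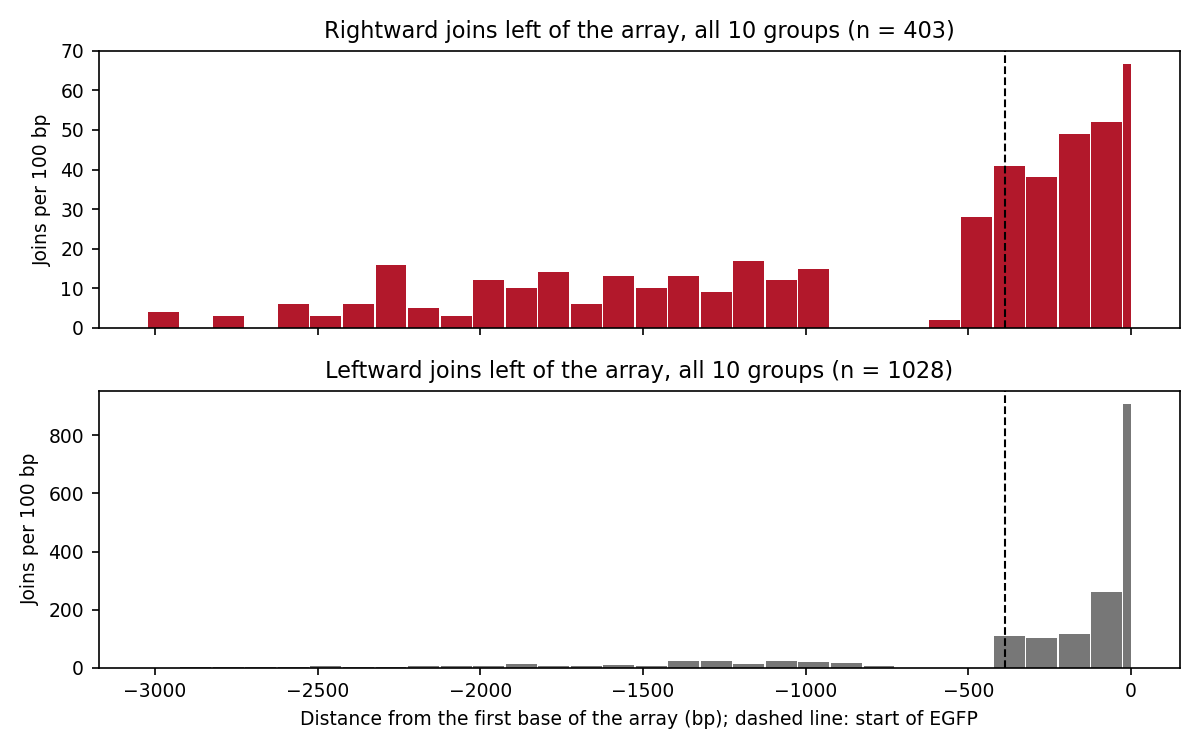
Joins per 100 bp (y axes, drawn to different scales) against the distance in bp from the first base of the array (x axis), in windows of 100 bp (24 bp for the last), for the 403 rightward joins (top) and the 1028 leftward joins (bottom) of all 10 groups. The dashed line marks the start of EGFP. Rightward joins become denser toward the array after an empty stretch, whereas leftward joins peak beside the array.

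In the 8 Tus groups, a smaller share of rightward joins than of leftward joins lay in EGFP. Over the 18 Tus libraries with at least 5 joins of each kind, the EGFP share was 43.6% ± 14.9 for rightward joins and 76.4% ± 11.3 for leftward joins (mean ± SD). The difference of -32.8 percentage points was lower in 16 of 18 libraries and passed the test (adjusted p = 0.00021, sign-flip permutation test, two-sided). Both exceptions were BRCA1flox libraries of run D, with 66.7% against 62.5% for siBRCA1 and 63.6% against 50% for siFANCM. Without run C the difference was -27.8 points over 10 libraries and no longer passed (adjusted p = 0.0568, sign-flip permutation test). On pooled joins the shares were 44.6% (164 of 368) for rightward and 76.1% (752 of 988) for leftward joins.

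The EGFP share of rightward joins ranged from 32.3% with siBLM in BRCA1del cells (10 of 31, 95% Wilson interval 18.6 to 49.9) to 57.1% with siLuciferase in BRCA1flox cells (48 of 84, 46.5 to 67.2). With I-SceI it was 48.5% (16 of 33, 32.5 to 64.8). These intervals, like all those below, cover counting error only. Median positions were 2053 in the 139 joins of the BRCA1del Tus groups and 2627 in the 229 joins of the BRCA1flox Tus groups. The EGFP share averaged 42.1% in BRCA1del and 48.7% in BRCA1flox libraries, a difference of -6.53 points that did not pass (adjusted p = 0.608, exact permutation test within siRNA). The common odds ratio on pooled joins was 0.644 (95% interval 0.418 to 0.993), which gives small libraries less weight, and with the EGFP split 100 bp further right the library difference was 3.18 points. None of the 11 pairs of groups passed on this share, and none had an unadjusted p below 0.05 (Fisher's exact test, smallest adjusted p = 0.445, differences of -17.7 to -0.58 points).

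**Figure D2:**
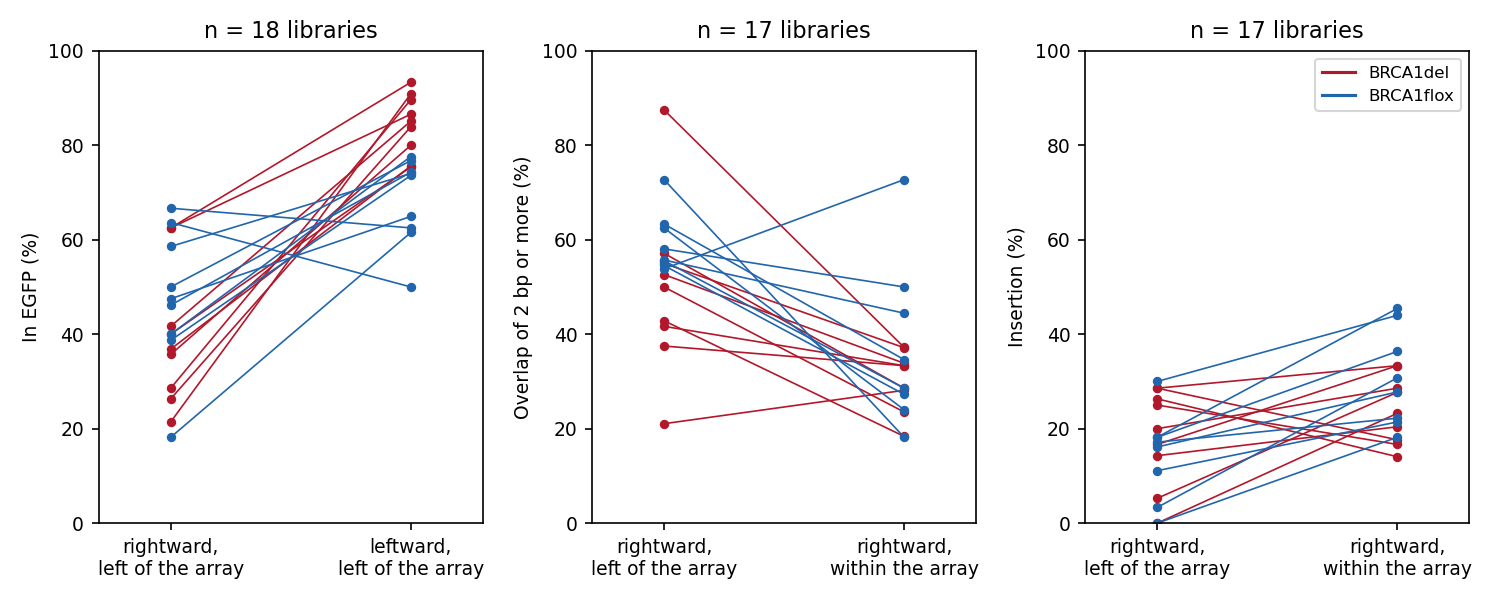
Shares in % (y axes) in single Tus libraries, with 1 line per library (red for BRCA1del, blue for BRCA1flox), for rightward joins left of the array (left points) and for the joins they were set against (right points). From left to right, the panels show joins in EGFP, joins with an overlap of 2 bp or more, and joins with an insertion; 16 of 18 lines rise in the first panel, 15 of 17 fall in the second and 14 of 17 rise in the third.

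Rightward joins left of the array made up a smaller part of the joins in the cassette body (all positions before the polyA region) in BRCA1del cells than in BRCA1flox cells. In single libraries the share was 4.31%, 2.17% and 4.04% with siBLM in BRCA1del cells, against 9.52% and 6.63% in BRCA1flox cells. With siBRCA1 it was 3.53%, 4.42% and 6.25% in BRCA1del cells, against 7.16% and 5.59% in BRCA1flox cells. For siBLM no library of one genotype reached the range of the other, and for siBRCA1 the ranges overlapped.

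With siFANCM the share was 4.66%, 4.39% and 3.09% in BRCA1del cells, against 7.43%, 3.64% and 7.59% in BRCA1flox cells. With siLuciferase it was 4.83%, 4.12% and 2.22% in BRCA1del cells, against 9.70% and 6.48% in BRCA1flox cells. The ranges overlapped for siFANCM and were apart for siLuciferase. Over the 4 siRNAs the libraries averaged 4.00% in BRCA1del and 7.19% in BRCA1flox cells, and the difference of -3.19 points passed (adjusted p = 0.0024, exact permutation test within siRNA, two-sided). The common odds ratio was 0.509 (95% interval 0.410 to 0.633). Fewer libraries were left without run C, at -2.44 points (adjusted p = 0.148), or without run D, at -3.93 points (adjusted p = 0.111), and by the same exact permutation test neither passed.

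Runs C and D held both genotypes with every siRNA, which gives 8 pairs of libraries with the same siRNA and run. Paired in this way, the share averaged 3.84% in BRCA1del and 7.04% in BRCA1flox libraries. The difference of -3.20 points was lower in 6 of 8 pairs and did not pass (p = 0.0312, adjusted p = 0.188, exact sign-flip permutation test). The exceptions were siFANCM in run C, with 4.39% in BRCA1del against 3.64% in BRCA1flox cells, and siBRCA1 in run D, with 6.25% against 5.59%. Pooled over siRNAs, the shares were 3.72% in BRCA1del against 8.11% in BRCA1flox cells in run C and 3.77% against 6.55% in run D. In run B the BRCA1flox library was siFANCM and the BRCA1del libraries had the other siRNAs, so its shares, 4.27% in BRCA1del and 7.43% in BRCA1flox cells, compare unlike groups. The leftward joins of the same stretch were also a smaller part of body joins in BRCA1del (446 of 3451, 12.9%) than in BRCA1flox cells (542 of 2998, 18.1%). The denominator is made up mostly of joins within the array, so these shares cannot tell fewer joins left of the array from more joins within it.

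For single siRNAs, Fisher's exact test on pooled joins called the genotype difference in body share with siBLM (31 of 908 in BRCA1del against 53 of 616 in BRCA1flox) and with siLuciferase (38 of 934 against 84 of 938), each at adjusted p = 0.000114. That test takes single joins as independent and covers counting error only. The differences were -5.19 points (95% interval -7.86 to -2.78) and -4.89 points (-7.16 to -2.67). Over libraries both pairs gave p = 0.1 by the exact permutation test, the smallest that 3 against 2 libraries can give, so no such pair can be called over libraries. Without run C neither was called on pooled joins, at -2.37 and -2.44 points. The siBRCA1 and siFANCM pairs differed by -2.39 (-5.03 to 0.03) and -1.77 points (-3.93 to 0.39) and did not pass.

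None of the 6 comparisons of an siRNA with siLuciferase passed on this share. In BRCA1flox cells the share was 8.60% with siBLM, 6.72% with siBRCA1 and 6.13% with siFANCM, against 8.96% with siLuciferase. The siFANCM difference of -2.82 points (95% interval -5.27 to -0.37) had an adjusted p of 0.0956 by Fisher's exact test. Over libraries its exact permutation p was 0.6. Leaving out each run in turn gave -4.03 to 0.99 points for it, so its direction was not stable. On pooled joins it passed by Fisher's exact test under some alternatives. These included leaving out run B (-4.03 points), counting each position once per library (-5.88 points) and taking all joins as the denominator (-3.08 points). In BRCA1del cells the 3 differences from siLuciferase lay between -0.65 and 0.30 points, with intervals from -2.43 to 2.25 points.

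Among joins left of the array, the share that ran rightward varied between the Tus groups from 18.3% with siBLM in BRCA1del cells (31 of 169, 95% Wilson interval 13.2 to 24.9) to 32.1% with siBLM in BRCA1flox cells (53 of 165, 25.5 to 39.6). Libraries averaged 23.97% in BRCA1del and 29.0% in BRCA1flox cells, a difference of -5.06 points that did not pass (adjusted p = 0.352, exact permutation test within siRNA). This share depended on where the region ended. With the limit moved to take in the first 24 bp of the array, the difference was -8.31 points and passed (adjusted p = 0.00615, exact permutation test). The siBLM pair differed by -13.8 points between the genotypes (adjusted p = 0.0588, Fisher's exact test), with an exact permutation p of 0.2 over libraries.

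With I-SceI, 33 of the 71 joins left of the array ran rightward. Tus libraries of the same BRCA1del siFANCM cells had rightward shares of 31.7%, 32.6% and 12%, against 52.2% and 43.8% in the I-SceI libraries. The Tus libraries all lay below both I-SceI libraries. The pooled difference of -18.4 points (95% interval -31.8 to -4.45) had an adjusted p of 0.0695 by Fisher's exact test, and the exact permutation p over libraries was 0.1, the smallest these numbers of libraries can give. With the limit moved by those 24 bp the difference was -27.6 points (adjusted p = 6.15e-05, Fisher's exact test on pooled joins), again with 3 against 2 libraries, too few for a call over libraries. As a share of body joins, rightward joins left of the array were 4.37% with Tus (36 of 824) and 2.89% with I-SceI (33 of 1143), a difference of 1.48 points (-0.17 to 3.30) that missed the threshold (adjusted p = 0.182, Fisher's exact test). Its direction turned, to -3.14 points, when each position was counted once per library. The empty vector had 2 rightward joins, at 232 and 1557, and 2 leftward joins left of the array.

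**Figure D3:**
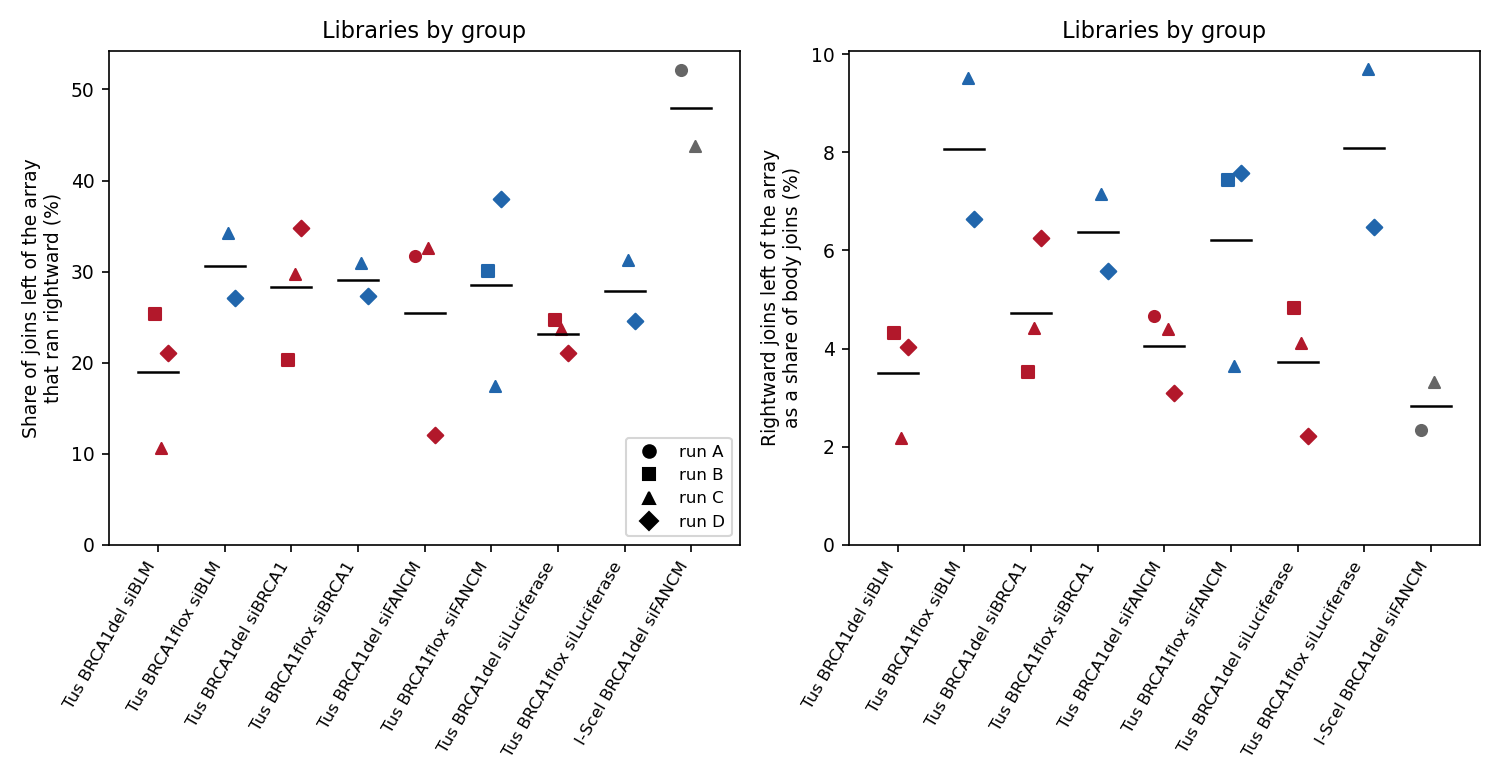
Share of joins left of the array that ran rightward (left, %) and rightward joins left of the array as a share of body joins (right, %), with 1 point per library, marker shape for the run, red for Tus in BRCA1del, blue for Tus in BRCA1flox and grey for I-SceI; black lines are means over libraries. In the right panel the BRCA1del means (3.51% to 4.73%) lie below the BRCA1flox means (6.22% to 8.09%).

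Single positions were seldom used more than once. The 403 joins fell on 335 positions, of which 281 were used once, 43 by 2 joins, 10 by 3 joins and 1 by 6 joins. Leftward joins were more concentrated: 1028 joins fell on 485 positions, 69.9% of them at positions used more than once, against 30.3% of the rightward joins, though their larger number itself makes reuse more frequent. With I-SceI, the 33 rightward joins left of the array all had different positions, whereas 353 of its 360 rightward joins within the array lay at positions used more than once. Those 360 joins fell on only 22 positions, with 60 joins at 3265, and their larger number also makes reuse more frequent. Left of the array, no position held 20% or more of the rightward joins of any Tus group or of I-SceI. The largest such share was 6.45%, at 2883 with siBLM in BRCA1del cells.

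Reuse of a position mostly joined different libraries. In 8 cases a position came back within 1 library, and none of these repeats had the same bait end and the same far end of the read. In 17 cases the same position was joined to the same bait base in 2 or more libraries, which accounted for 39 joins. Position 2951 had 6 joins in 5 groups: siBLM in BRCA1del cells, siBLM (2 joins), siFANCM and siLuciferase in BRCA1flox cells, and I-SceI. All but 1 had the 4-bp overlap printed above, and the other carried a 5-base insertion after a bait loss of 27 bases. Their reads ended at 6 different places, from 2982 to 3164, so they were not copies of 1 molecule.

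The 3 joins at 2735 came from siBRCA1, siFANCM and siLuciferase in BRCA1flox cells, in 3 runs, and shared the 3-bp overlap printed above. At 2883, the 2 siBLM joins in BRCA1del cells shared the printed 4-bp overlap, and the third, with I-SceI, had a 1-bp overlap. At 3010, 2 of 3 joins shared a bait loss of 14 bases, and at 3004, 2 of 3 shared a bait loss of 113 bases. At 2841, an I-SceI join and a siBLM join in BRCA1flox cells shared a 3-bp overlap. At 2053, 2 joins from 1 library had a 4-base insertion and the same bait loss of 11 bases with different far ends. The joins at 738, 2712 and 2805 each had 3 different bait ends, so at those positions only the cassette side recurred.

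Microhomology was the most frequent structure of the rightward joins. Of the 403 joins, 221 (54.8%) had an overlap of 2 bp or more, 64 (15.9%) an overlap of 1 bp, 52 (12.9%) were blunt and 66 (16.4%) had an insertion. Overlaps reached 7 bp, and 52 were of 4 bp or more. The overlap sequences used most often were GC in 16 joins, GGC in 15 and AC in 14, all present in the last bases of the bait side printed above. Joins in EGFP and joins before it had similar shares of 2-bp or longer overlaps in the Tus groups, 56.1% (92 of 164) against 53.4% (109 of 204).

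Rightward joins left of the array had microhomology more often than rightward joins within the array. Over 17 Tus libraries the shares were 54.2% ± 14.4 and 33.7% ± 13.1 (mean ± SD), and the difference of 20.5 points passed (higher in 15 of 17 libraries, adjusted p = 0.00182, sign-flip permutation test). They had an insertion less often, 16.4% ± 9.8 against 27.1% ± 9.2, a difference of -10.7 points (lower in 14 of 17 libraries, adjusted p = 0.00861, sign-flip permutation test). Without run C these differences were 9.50 points (adjusted p = 0.228) and -10.5 points (adjusted p = 0.191) over 9 libraries, and without run B the insertion difference was -9.47 points (adjusted p = 0.0753), all by the sign-flip permutation test. Blunt shares were 12.8% ± 9.7 against 15.9% ± 8.6 and did not pass (adjusted p = 0.378, sign-flip permutation test).

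Set against leftward joins of the same stretch over 18 Tus libraries, none of the structure shares passed. Microhomology was 53.98% ± 14 for rightward and 47.0% ± 14.6 for leftward joins (adjusted p = 0.177, sign-flip permutation test). Blunt joins were 12.9% ± 9.5 against 15.2% ± 7.8 (adjusted p = 0.420) and insertions 17.1% ± 9.9 against 18.8% ± 7.0 (adjusted p = 0.578, sign-flip permutation test for both). With I-SceI, 19 of 33 rightward joins left of the array had an overlap of 2 bp or more (57.6%), against 19 of 38 leftward joins left of the array (50%) and 51 of 360 rightward joins within the array (14.2%).

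Between groups, no difference in structure passed. The microhomology share of rightward joins left of the array ranged over the Tus groups from 36.1% with siFANCM in BRCA1del cells (13 of 36) to 61.5% with siBRCA1 in BRCA1flox cells (24 of 39). Over the 4 siRNAs it averaged 51.0% in BRCA1del and 58.1% in BRCA1flox libraries (-7.06 points, adjusted p = 0.354, exact permutation test within siRNA). Blunt shares averaged 16.7% and 10.1% (6.61 points, adjusted p = 0.354), and insertion shares 13.7% and 15.6% (-1.92 points, adjusted p = 0.705, exact permutation test within siRNA for both). For insertions the common odds ratio from pooled joins was 1.06 (95% interval 0.605 to 1.86), of the opposite direction to the library means.

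By Fisher's exact test, 0 of 11 pairs passed on each structure share, and those with an unadjusted p below 0.05 numbered 1 for microhomology, 1 for blunt joins and 2 for insertions. The microhomology difference with the lowest unadjusted p was with siFANCM, 36.1% in BRCA1del against 60.4% in BRCA1flox cells (-24.3 points, 95% interval -42.5 to -3.13, adjusted p = 0.302, Fisher's exact test). Its exact permutation p over libraries was 0.4. The BRCA1del libraries had 21.1% in run A, 50% in run C and 66.7% in run D, and the BRCA1flox libraries 54.5% to 72.7%. Leaving out each run in turn gave -29.9 to -7.44 points. With siBLM the blunt share was 19.4% in BRCA1del (6 of 31) and 3.77% in BRCA1flox cells (2 of 53), and the insertion share was 3.23% (1 of 31) and 22.6% (12 of 53). Over libraries the exact permutation p was 0.7 for the blunt share and 0.4 for the insertion share. Tus differed from I-SceI by -21.5 points in microhomology (95% interval -41.9 to 1.93, 36 and 33 joins, adjusted p = 0.302, Fisher's exact test), and by 5.32 points, the other way, without run A.

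**Figure D4:**
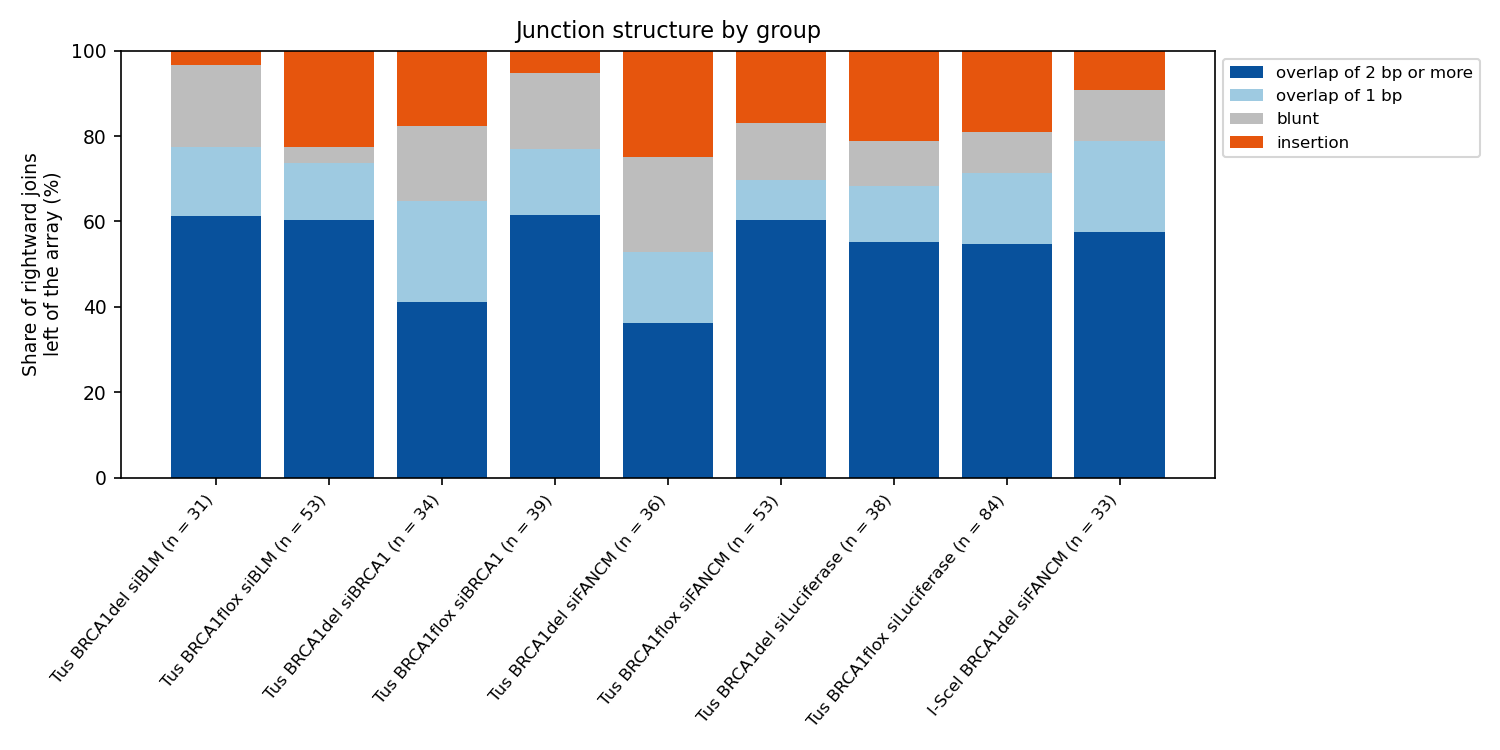
Share in % (y axis) of rightward joins left of the array with an overlap of 2 bp or more, an overlap of 1 bp, a blunt junction or an insertion, stacked for the 8 Tus groups and I-SceI (x axis, number of joins in brackets). Overlaps of 2 bp or more run from 36.1% to 61.5% in the Tus groups.

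The bait end of these joins had lost a median of 10 bases (interquartile range 3 to 18), and 54 joins (13.4%) had lost more than 30. In the Tus groups, 20 of 139 joins in BRCA1del cells (14.4%) kept the whole bait end, against 6 of 229 in BRCA1flox cells (2.62%). This measure was chosen after the bait ends had been seen. The common odds ratio on pooled joins was 6.47 (95% interval 2.48 to 16.9), but the difference of 6.88 points over libraries had p = 0.124 by the exact permutation test within siRNA. In run C the numbers were 9 of 50 in BRCA1del against 3 of 151 in BRCA1flox cells. In run D the order was the other way, 0 of 19 in BRCA1del against 3 of 47 in BRCA1flox cells. In run B, where the genotypes shared no siRNA, they were 8 of 51 in BRCA1del and 0 of 31 in BRCA1flox cells; at 3 counts, a count of 0 in 31 allows a share of up to 9.68%. Among leftward joins left of the array, 81 of 446 (18.2%) and 28 of 542 (5.17%) kept the whole bait end, so the rightward joins were not alone in this. Over libraries the leftward difference was 12.9 points (unadjusted p = 0.00145, exact permutation test within siRNA). Its order was the same in runs B, C and D, with 14.9% in BRCA1del against 3.33% in BRCA1flox cells in run D. The order was thus the same across these runs only in leftward joins, of which there were more. Their common odds ratio on pooled joins was 3.90 (95% interval 2.48 to 6.12), and whether the leftward and rightward differences were unlike was not tested.

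**Figure D5:**
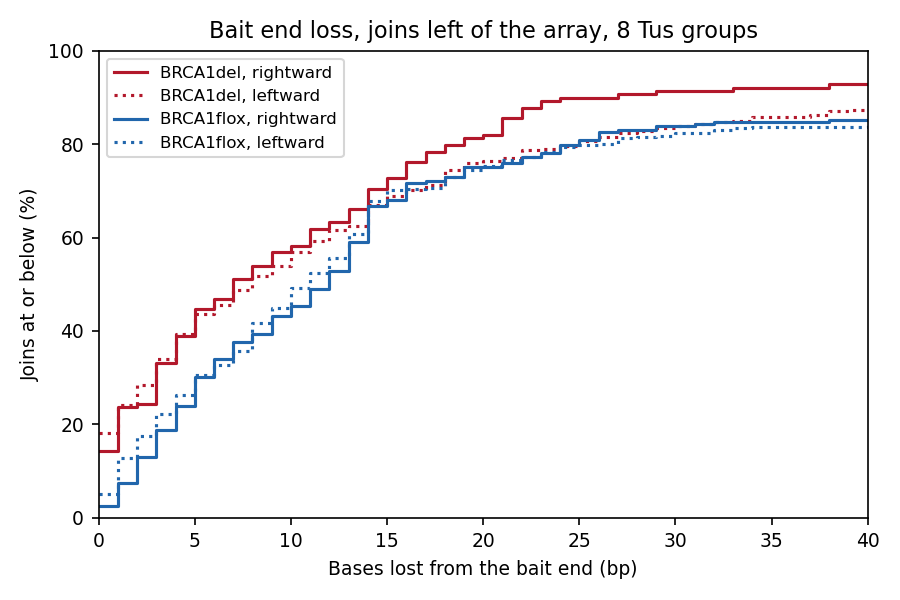
Cumulative share of joins left of the array (y axis, %) by the number of bases lost from the bait end (x axis, bp, shown up to 40), for BRCA1del (red) and BRCA1flox (blue) cells in the 8 Tus groups; solid lines are rightward joins and dotted lines leftward joins. At a loss of 0 the rightward lines start at 14.4% in BRCA1del and 2.62% in BRCA1flox cells.

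In most of the reads the cassette part ran up to the sequencing adapter (279 of 403), so it ended where the DNA had been sheared or primed. The cassette part was 102 bp long at the median, and in 69 joins it ran on into the array. In 18 joins, all with Tus, the cassette part was followed by a sequence read here as the other side of the bait cut, which starts as printed next.
far side of the bait: tcctggacccgcgagtgtgggaag
The assignment rests on its recurrence and on the TGG near its start, the motif that Cas9 requires beside its cut, and not on a reference of the locus. These reads held a cassette fragment of 59 to 188 bp (median 97) between both bait ends. Of the 18 fragments, 13 began in EGFP and 5 ended in the array. They came from 9 libraries of 6 groups, in 9 of the 139 joins in BRCA1del and 9 of the 229 in BRCA1flox cells. Of those in BRCA1del cells, 5 were with siBRCA1.

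Such captured fragments were found in 4.89% of rightward joins left of the array in the Tus groups (18 of 368), against 1.11% of leftward joins of the same stretch (11 of 988) and 2.07% of rightward joins within the array (11 of 531). Over libraries the difference from leftward joins was 5.03 points (higher in 9 and lower in 4 of 18 libraries, adjusted p = 0.0303, sign-flip permutation test), and that from rightward array joins was 3.13 points (adjusted p = 0.189). This comparison was chosen after the reads had been seen, and its p-values were adjusted only over the differences given here. The cassette part was shorter in rightward joins left of the array (median 101.5 bp) than in leftward joins (119 bp) and in rightward array joins (134 bp), which gives a read more room to reach a second junction, and the part this played was not tested. In I-SceI, 0 of 33 rightward joins left of the array were of this kind, which by the same limit of 3 counts allows a share of up to 9.09%.

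A further 55 reads went on into other sequence that was not identified here. In 14 of them the cassette part ended at 1535 or at 2992 (7 joins each). Of the 66 insertions, 18 were of 1 base and 15 of 10 bases or more, up to 30. Those 15 were all at least 12 bases long: 4 matched the cassette on the other strand, 1 the bait, 1 its far side, and 9 matched none of them. The 4 matches were for joins at 1634, 1872, 2670 and 2941, and for 1872 and 2941 the matching sequence lay at 1855 and 2926, within 20 bases of the join itself.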

How the data were processed

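Junction tables of the 10 groups (25 samples), deposited by the authors with the samples of a group pooled, list a cassette position, a strand and the read of each join. In these deposited tables the values are positions and orientations, with no counts of molecules. Bowtie2 and the mm9 build are named in the submitters' processing notes, and their filters are not given in the sources used here. Positions are 1-based cassette coordinates, not those of a genome build.

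Libraries were read from the run field of the read names, and 148 to 933 joins per library set the precision. The cassette and bait sequences were rebuilt from the reads, and junction structure was called from them with Python 3.11.15, numpy 2.4.6, pandas 2.3.3 and scipy 1.17.1. Microhomology means an overlap of 2 bp or more. Structure was called for all 403 joins, and 395 began on the deposited position. On simulated reads the structure was recovered in 600 of 600 without errors. It was recovered in 585 of 600 when each base was redrawn at random with a probability of 0.3%, a draw that can return the same base. Recovery was not measured for reads that start close to the array, start in it or enter it, for long insertions or for large bait losses. The simulation therefore cannot show how accurate the calls were in such joins, which include the array joins used for comparison. They also include the 59 rightward and 437 leftward joins in the EGFP window next to the array.

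Pooled joins were compared by Fisher's exact test, which covers counting error only, adjusted by Benjamini-Hochberg over the 11 pairs of a measure. Genotypes over siRNAs were compared by an exact permutation test on library shares, adjusted over 6 measures. Kinds of join were compared by sign-flip permutation of libraries with at least 5 joins of each kind (100000 resamples), adjusted over 7 comparisons. The comparisons of captured fragments were adjusted apart from these, among themselves. A difference passed at an adjusted p below 0.05. Positions described singly were 10 of those used by 3 joins or more, and not every position tied at 3 joins was described. The members, measures and lists were chosen with earlier results of these data known. Alternatives changed the region's limit, the EGFP split, the structure thresholds, the denominator and the runs.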

Additional observations from a re-analysis of the deposited data

Results flagged for a closer look

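The microhomology share of rightward joins left of the array differed between siBRCA1 and siLuciferase in opposite directions in the genotypes. In BRCA1del cells it was lower with siBRCA1 in runs B and C, by a mean of -13.8 points. Run D, left out because its siLuciferase library held 4 such joins, had 37.5% with siBRCA1 and 50% with siLuciferase. In BRCA1flox cells it was higher with siBRCA1 in runs C and D, by 6.59 points. Neither difference passed on pooled joins (-14.1 points, adjusted p = 0.548, in BRCA1del and 6.78 points, adjusted p = 0.774, in BRCA1flox cells, Fisher's exact test), and the difference between the genotypes was not tested.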

How the results depend on the processing

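Most results kept their direction and their side of the threshold, but most of them had not passed to begin with. No called direction reversed under the alternatives run. Without run C, the genotype difference in body share and the EGFP difference from leftward joins no longer passed. The microhomology and insertion differences from rightward array joins did not pass without run C either. Counts of pairs are by Fisher's exact test on pooled joins, which takes single joins as independent. Over libraries no single pair could be called, because each group had too few of them. Without run D the BRCA1flox siBLM, siBRCA1 and siLuciferase groups are 1 library each. Pairing genotypes by siRNA and run, chosen after seeing the data, gave a body share difference of -3.20 points (adjusted p = 0.188, exact sign-flip permutation test), and the other 5 genotype differences did not pass either. Among differences between genotypes over siRNAs, from I-SceI or from other joins, those that had not passed turned direction in 7 cases. Besides those given above, these were the EGFP share of Tus against I-SceI without run C (3.79 points), the genotype differences in insertions without run D (0.55 points) and in overlaps of 4 bp or more (3.96 points), and microhomology against leftward joins without run C (-1.33 points). With the right limit moved by 24 bp into the array, the rightward share differed by -8.31 points between the genotypes and by -27.6 points between Tus and I-SceI, and 2 genotype pairs passed in place of 0. With the joins that run into the far side of the bait left out, an alternative chosen after seeing the data, Tus and I-SceI differed by -19.5 points and 1 genotype pair passed. With the runs shared by both groups, 1 genotype pair passed on the rightward share and 1 siRNA pair on the body share. Counting each position once gave 1 siRNA pair on the body share, and all joins as the denominator gave 2, against 0.

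Leaving out each run in turn gave a genotype difference in body share of -3.93 to -2.44 points, with 0 to 2 genotype pairs and 0 to 1 siRNA pairs passing. Between 0 and 1 genotype pairs passed on the rightward share, and between 0 and 1 on the blunt share. The EGFP difference from leftward joins was -40.2 to -27.8 points. Against rightward array joins, microhomology differed by 9.50 to 23.8 points and insertions by -12.2 to -9.47 points. Several single genotype or siRNA pairs that had not passed also turned direction when a run was left out, and others did not. With siBRCA1 against siLuciferase in BRCA1flox cells, the EGFP share differed by -18.6 to 16.7 points and the blunt share by -14.3 to 14.8 points. Leaving out a run also leaves fewer libraries to permute. No paired analysis was possible because the tables carry no replicate numbers, so the pairing above is by run. Shares of 31 to 84 joins per Tus group have wide intervals, and smaller differences in structure were not detectable at this depth.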
